A study of Mus musculus with 11 samples.

Results

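Solute carriers (Slc genes) were described in mouse CD4 T cells, leaving out the 4 glucose and lactate carriers Slc2a1, Slc2a3, Slc16a1 and Slc16a3. Each gene was represented by its brightest probe set among those with 1 gene symbol. A gene was kept when its mean log2 signal was 6 or more in at least 1 of the 3 groups of arrays. This left 134 of the 343 genes considered, or 39.1% of them, and of all 18193 genes 43.7% reached that level. The members were therefore chosen on the same values that are compared below.

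RNA of 11 samples was measured on 1 Affymetrix expression array each, and the cells had been sorted from the spleens and lymph nodes of 6 to 8 week old mice. The Treg group (5 arrays) was labelled as CD4+ T cells positive for Foxp3, the lineage transcription factor of regulatory T cells. The Foxp3 probe set was at background in these 5 arrays, so Treg here names the arrays with that label. The GFPKO group (3 arrays) was labelled as GFP+ CD4+ T cells of Foxp3GFPKO/WT mice, which carry 1 Foxp3 allele replaced by a GFP reporter that makes no Foxp3 protein beside 1 wild-type allele. The TN group (3 arrays) was labelled as naive CD4+ T cells without Foxp3. All cells were selected for CD4 and sorted, and the labels do not say how many animals were pooled or whether arrays came from separate animals, so p-values cover only the spread seen among these arrays, possibly a technical one.

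Solute carriers are membrane proteins that move nutrients, metabolites, ions and metals across the plasma membrane and the membranes of organelles, usually along a gradient or coupled to another ion. Naive T cells are quiescent and take up little, and activated T cells raise the uptake of amino acids, glucose and iron. Regulatory T cells are known to rely more on fatty acid oxidation and mitochondrial respiration than other activated T cells, processes that need carnitine carriers and the carriers of the inner mitochondrial membrane.

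The arrays were checked against their labels. Of 5 markers of CD4 T cells measured, 4, among them Cd3e and Cd4, were not called in any comparison. The fifth, the costimulatory receptor Cd28, averaged 9.70 in Treg, 10.43 in GFPKO and 10.33 in TN and was called lower in Treg than in TN (-0.63, adjusted p = 0.024, limma) and than in GFPKO (-0.73, adjusted p = 0.012). Ctla4 and Il2ra, which mark regulatory and activated T cells, were higher in Treg and GFPKO than in TN (Il2ra 9.18 in Treg, 8.41 in GFPKO and 3.56 in TN). The Foxp3 probe set averaged 3.47 in Treg arrays, 6.93 in GFPKO arrays and 3.48 in TN arrays. All 5 Treg arrays were below the background of 3.99, so the probe set does not bear out the Treg label, and every direction involving Treg rests on the label. Xist was high and the Y-linked genes were low in GFPKO arrays only, so the animals' sex and the GFPKO group cannot be told apart. Of the members, 6 lie on the X chromosome. The distance between the 3' and 5' actin controls, a sign of RNA quality, was 0.770 and 0.832 in GFPKO replicates 1 and 2 and between 0.381 and 0.611 in the other arrays. Myeloid markers summed to a linear signal of 323 to 512 in Treg, 283 to 443 in GFPKO and 548 to 792 in TN, with 9 of 14 at or below background in Treg and in GFPKO and 4 in TN. Cytotoxic and NK markers summed to 574 to 729 in Treg, 276 to 422 in GFPKO and 1035 to 1241 in TN, with 2 of 8 at or below background in Treg, 3 in GFPKO and 1 in TN. B cell markers summed to 316 to 386 in Treg, 139 to 185 in GFPKO and 158 to 176 in TN, with 6 of 9 at or below background in each group, and markers of red cells and platelets summed to 97.5 to 117 in Treg, 89.7 to 110.0 in GFPKO and 101 to 109 in TN, with 5 of 6 at or below background. The sums covered unlike changes. Between Treg and TN the B cell marker Cd79b was called higher (7.63 in Treg and 4.36 in TN) and Ms4a1 lower. Of the myeloid markers Lyz2 was called higher (7.02 in Treg and 5.58 in TN) and 5 lower. The largest of these falls was in Tyrobp (4.56 in Treg and 7.87 in TN). Of the cytotoxic markers Gzmb was called higher (6.66 in Treg and 4.02 in TN) and 2 lower. The 2 were Klrd1 (3.15 in Treg and 8.83 in TN) and Prf1 (5.71 in Treg and 7.92 in TN). Tyrobp, Klrd1 and Prf1 were also called lower in GFPKO than in TN. The part of these signals in the differences below was not tested. In bulk RNA fewer cells of a type and less RNA per cell cannot be told apart.

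Of the members, 104 averaged 6 or more in every group, 17 in 2 groups and 13 in 1 group. The 13 were Slc20a2, Slc22a2, Slc25a53, Slc35f2, Slc39a4, Slc43a1, Slc52a3 and Slc9a7 in Treg, Slc19a2 and Slc38a6 in GFPKO, and Slc25a10, Slc26a11 and Slc66a2 in TN. Mean log2 signals over all arrays ran from 5.57 to 12.30 with a median of 7.11. The level of 6 was not a gap in the data. Just inside it were Slc38a6, Slc52a3 and Slc66a2, whose highest group means were 6.02, 6.04 and 6.05, and just outside were Slc2a9, Slc22a15 and Slc25a42 at 5.99, 5.98 and 5.94. By role the list held 30 mitochondrial carriers, 21 metal carriers, 18 members of the nucleotide sugar family, 15 amino acid carriers and smaller groups. Slc7a6os, Slc9a3r1, Slc4a1ap and Slc2a4rg-ps carry a family name without being transporters. Of these, Slc4a1ap was counted by its family number with the ion and pH exchangers and Slc2a4rg-ps with the sugar carriers.

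Between Treg and TN, 28 members were called at an adjusted p under 0.05 (limma with Benjamini-Hochberg adjustment over all 18193 genes, two-sided), of which 21 were higher and 7 lower in Treg. The largest increase was in Slc22a2, an organic cation transporter, and the largest decrease in Slc16a5, a monocarboxylate transporter family member. The members called made up 20.9%, against 9.97% of all genes (6.54% higher, 3.42% lower) and 16.4% of the genes that met the same rule on level (10.1% higher, 6.3% lower). A gene that reached 6 only in the group where it was high had to differ, so this excess is a description. Over the 104 members at 6 or more in every group the share was 13.5% (10 higher and 4 lower), against 13.1% of the 6994 other genes at that level, so on this footing solute carriers changed about as often as other expressed genes. The median difference of the members was 0.00 on the log2 scale and that of all genes 0.03. Centring the arrays moved the split to 15 higher and 13 lower, and moved the median of all genes from 0.03 to -0.11. Over all genes it moved the split from 1190 higher and 623 lower to 906 and 1149.

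Between GFPKO and TN, which shares the TN arrays with the preceding comparison, 14 members were called, 7 higher and 7 lower in GFPKO. This was 10.4% of the members, against 5.66% of all genes (2.64% higher, 3.02% lower) and 9.94% of the genes that met the rule on level (4.72% higher, 5.21% lower). Over the members at 6 or more in every group it was 7.69%, against 7.45% of the other genes at that level. The median difference was -0.08, and that of all genes was -0.04. Without GFPKO replicate 3 the members called lower numbered 15, and the members called higher numbered 3 without GFPKO replicate 2 and 3 without TN replicate 3. Over all genes, 1224 instead of 549 were lower without GFPKO replicate 3. Those higher numbered 355 without GFPKO replicate 2 and 362 without TN replicate 3, instead of 480.

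Between Treg and GFPKO, which shares arrays with both, 27 members were called, 20 higher and 7 lower in Treg. This was 20.1% of the members, against 9.43% of all genes (6.88% higher, 2.55% lower) and 15.8% of the genes that met the rule on level (10.9% higher, 4.9% lower). Over the members at 6 or more in every group it was 12.5%, against 12.97% of the other genes at that level. The median difference was 0.13, and that of all genes was 0.08. With the actin distance of each array in the model 15 members were called, 11 higher and 4 lower. Over all genes this model called 584 higher and 227 lower, instead of 1252 and 464. Without GFPKO replicate 3 the members called higher numbered 33, without GFPKO replicate 2 they numbered 13, and centring gave 12 higher and 11 lower. Over all genes those higher numbered 2414 without GFPKO replicate 3 and 870 without GFPKO replicate 2, and centring gave 694 higher and 843 lower.

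**Figure D1:**
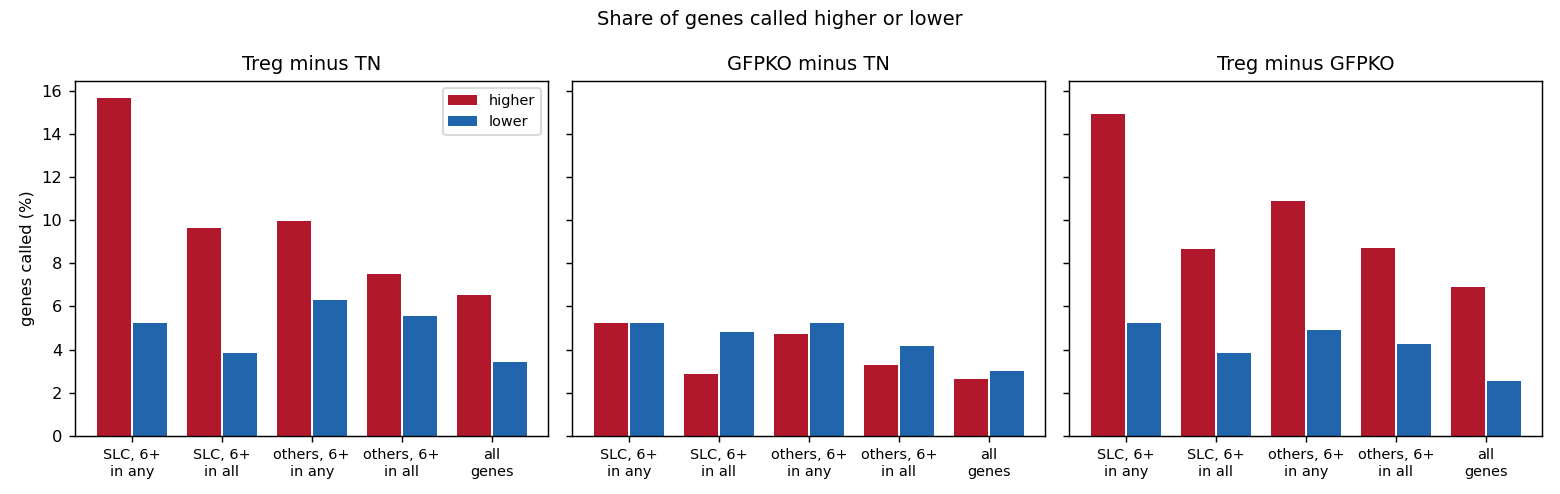
Share of genes called higher (red) or lower (blue) at adjusted p under 0.05 in each comparison, in percent, for the 134 solute carrier genes (6+ in any group), the 104 at 6 or more in all groups, other genes at the same levels and all genes. Among genes at 6 or more in all groups, the total share called was 13.5% of solute carriers and 13.1% of other genes for Treg minus TN.

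The carriers of carboxylates, organic ions and drugs had the largest differences of any role. Of 7 members 3 were higher and 1 lower in Treg than in TN, 2 were higher and 1 lower in GFPKO than in TN, and 3 were higher and 2 lower in Treg than in GFPKO. These shares were 57.1%, 42.9% and 71.4%. Of all genes 9.97%, 5.66% and 9.43% were called, and of genes at the level of the rule 16.4%, 9.94% and 15.8%. These base shares also belong beside the counts of the roles below. Slc22a2 reached 6 only in Treg, so it had to differ, and the counts by role are descriptions. Slc22a2 (OCT2), best known as the organic cation transporter of the kidney, had log2 signals of 6.76, 6.78, 6.97, 6.79 and 6.97 in Treg, 5.78, 5.62 and 6.22 in GFPKO and 4.14, 4.21 and 4.07 in TN. No 2 groups overlapped, with Treg highest, GFPKO between and TN close to the background of 3.99. The difference was 2.71 ± 0.14 (SE, adjusted p = 2.5e-09, limma) for Treg minus TN, 1.73 ± 0.15 (adjusted p = 2.8e-06) for GFPKO minus TN and 0.98 ± 0.14 (adjusted p = 0.0003) for Treg minus GFPKO.

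Slc16a5 (MCT6) ran the other way. Its signals were 5.44, 5.22, 5.29, 5.00 and 5.40 in Treg, 6.45, 7.05 and 7.33 in GFPKO and 8.65, 8.72 and 8.66 in TN. The groups were separate again, with GFPKO between the others. Treg was 10.6-fold lower than TN (log2 -3.40 ± 0.17, adjusted p = 2.1e-09, limma), GFPKO 3.32-fold lower than TN (log2 -1.73 ± 0.19, adjusted p = 2.6e-05) and Treg 3.19-fold lower than GFPKO (log2 -1.68 ± 0.17, adjusted p = 1.5e-05). The myeloid and cytotoxic marker sums were also lower in Treg and GFPKO than in TN, and their part in this difference was not tested. Slc16a6, whose zebrafish counterpart exports the ketone body beta-hydroxybutyrate, read 6.63, 6.13, 5.82, 6.05 and 5.89 in Treg, 7.22, 6.88 and 6.64 in GFPKO and 5.52, 5.77 and 5.67 in TN. It was highest in GFPKO, whose lowest array lay just above the highest Treg array. GFPKO exceeded TN by 1.26 ± 0.20 (adjusted p = 0.00087, limma), and Treg was below GFPKO (-0.81 ± 0.18, adjusted p = 0.009), a call lost with the actin distance in the model (-0.57, adjusted p = 0.100).

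Slc22a5 (OCTN2), which brings in carnitine, the carrier of long-chain fatty acids into mitochondria, had signals of 8.41, 8.55, 8.37, 8.16 and 8.33 in Treg, 7.53, 7.49 and 7.56 in GFPKO and 7.10, 7.15 and 7.14 in TN. Each Treg array lay above all others. Treg exceeded TN by 1.23 ± 0.11 (adjusted p = 1.5e-06, limma) and GFPKO by 0.84 ± 0.11 (adjusted p = 0.00021), while GFPKO minus TN was 0.40 ± 0.13 (adjusted p = 0.086). Another probe set of Slc22a5 was not called. Slc14a1, a urea transporter, had signals of 8.50, 8.01, 8.13, 7.90 and 8.39 in Treg, 7.16, 6.86 and 7.36 in GFPKO and 7.24, 7.02 and 6.79 in TN. The GFPKO and TN arrays overlapped, and the Treg arrays lay above both. Treg minus TN was 1.17 ± 0.17 (adjusted p = 0.00015) and Treg minus GFPKO 1.06 ± 0.17 (adjusted p = 0.00075), and GFPKO minus TN was 0.11 ± 0.18 (adjusted p = 0.86).

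**Figure D2:**
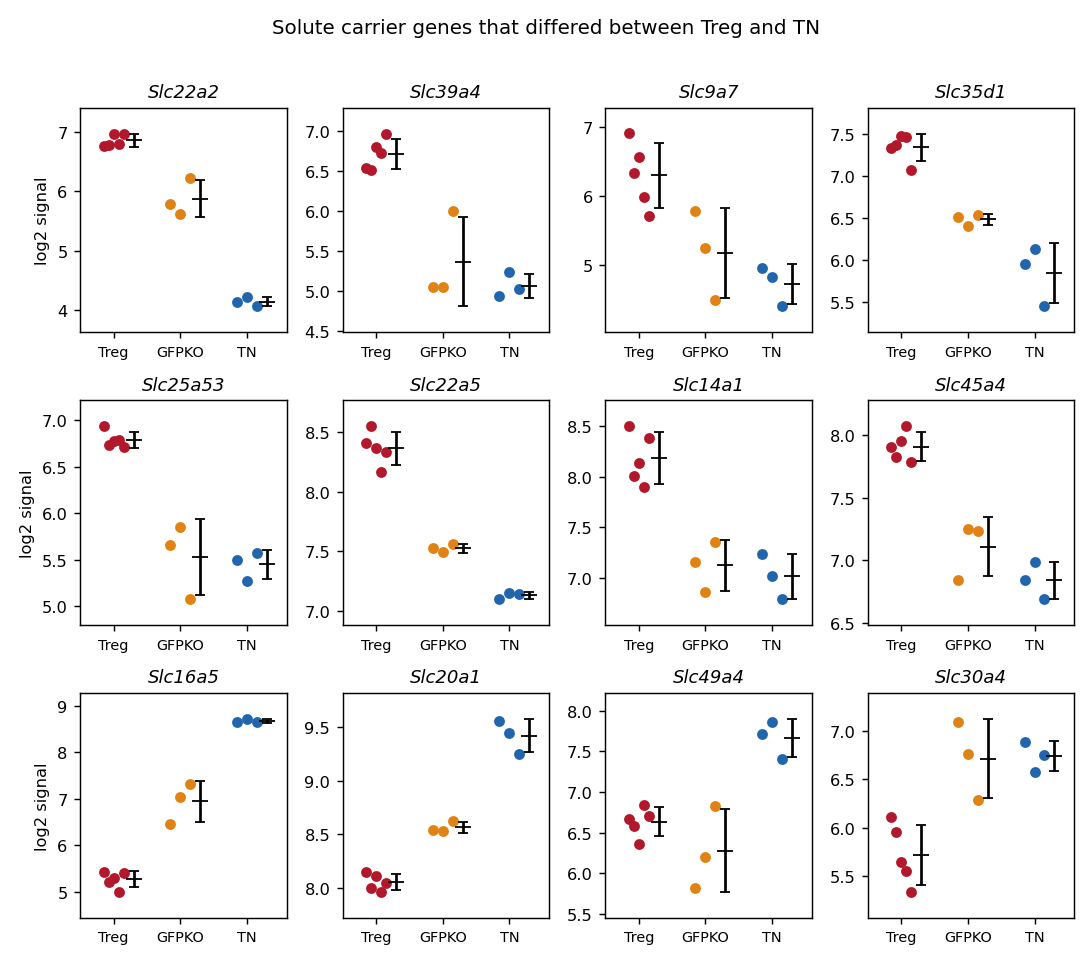
Log2 signal of solute carrier genes with large differences, 1 point per array, with the mean and SD of each group beside the points (Treg n = 5, GFPKO n = 3, TN n = 3). Slc22a2 and Slc16a5 show 3 separate groups in opposite orders, with means of 6.85, 5.87 and 4.14 for Slc22a2 and 5.27, 6.94 and 8.67 for Slc16a5 in Treg, GFPKO and TN.

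Promoter sequence is shown for members among the largest changes between Treg and TN, the 3 highest called increases and the 2 largest called decreases that had a single start in the RefSeq promoter table (build GRCm38.p6). Each is the 250 bases upstream of the start, written 5' to 3' on the gene's strand. Capitals mark matches, on either strand, to the forkhead core TAAACA, the STAT site TTCNNNGAA, the AP-1 site TGANTCA or the E-box CACGTG. The positions are chr17:12583939-12584188 on the plus strand for Slc22a2, chrX:20291828-20292077 on the minus strand for Slc9a7, chr4:103215177-103215426 on the minus strand for Slc35d1, chr16:35769371-35769620 on the minus strand for Slc49a4 and chr2:122702664-122702913 on the minus strand for Slc30a4.
Slc22a2: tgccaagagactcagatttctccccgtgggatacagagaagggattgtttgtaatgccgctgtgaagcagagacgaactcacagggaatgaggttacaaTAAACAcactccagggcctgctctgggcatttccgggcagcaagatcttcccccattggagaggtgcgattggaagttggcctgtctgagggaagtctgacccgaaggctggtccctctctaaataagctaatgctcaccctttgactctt
Slc9a7: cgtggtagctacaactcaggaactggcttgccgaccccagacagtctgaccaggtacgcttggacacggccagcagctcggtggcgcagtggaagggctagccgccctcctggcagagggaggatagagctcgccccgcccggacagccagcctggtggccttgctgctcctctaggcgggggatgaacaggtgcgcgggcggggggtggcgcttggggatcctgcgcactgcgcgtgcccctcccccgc
Slc35d1: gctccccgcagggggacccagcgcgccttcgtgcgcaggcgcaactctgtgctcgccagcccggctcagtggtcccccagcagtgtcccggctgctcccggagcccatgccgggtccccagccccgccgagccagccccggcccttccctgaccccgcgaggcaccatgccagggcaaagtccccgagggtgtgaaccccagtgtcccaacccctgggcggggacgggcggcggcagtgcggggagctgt
Slc49a4: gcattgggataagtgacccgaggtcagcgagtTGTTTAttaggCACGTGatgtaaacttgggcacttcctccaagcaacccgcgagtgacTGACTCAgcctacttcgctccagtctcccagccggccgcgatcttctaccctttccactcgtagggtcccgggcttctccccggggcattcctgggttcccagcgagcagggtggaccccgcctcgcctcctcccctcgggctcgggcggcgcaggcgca
Slc30a4: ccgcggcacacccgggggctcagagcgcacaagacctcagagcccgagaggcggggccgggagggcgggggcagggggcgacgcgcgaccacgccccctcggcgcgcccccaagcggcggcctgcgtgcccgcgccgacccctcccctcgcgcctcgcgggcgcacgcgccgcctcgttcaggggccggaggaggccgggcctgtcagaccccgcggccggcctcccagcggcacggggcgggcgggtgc
The Slc22a2 window held 1 forkhead core, 151 to 146 bases upstream of the start. The Slc49a4 window held 1 forkhead core on the opposite strand, 1 AP-1 site and 1 E-box, and the other windows held no match. GC content was 51.6% for Slc22a2, 69.6% for Slc9a7, 75.2% for Slc35d1, 63.6% for Slc49a4 and 82.8% for Slc30a4. Over the 136 promoter windows of 102 members the forkhead core was in 8.09%, against 12% of all 32851 windows. The STAT site was in 5.15% against 7.02%, the AP-1 site in 3.68% against 6.75% and the E-box in 13.2% against 6.02%. A match of letters is no evidence of binding.

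Among 15 amino acid carriers, 3 were higher in Treg than in TN, 1 was lower in GFPKO than in TN, and 2 were higher and 1 lower in Treg than in GFPKO. The shares were 20%, 6.67% and 20%, against 9.97%, 5.66% and 9.43% of all genes. Of genes at the level of the rule 16.4%, 9.94% and 15.8% were called. The 3 higher in Treg than in TN were carriers of neutral amino acids. Slc43a1 (LAT3) averaged 6.10 ± 0.17 in Treg, 5.56 ± 0.38 in GFPKO and 4.96 ± 0.11 in TN (SD), with no overlap between Treg and TN and a difference of 1.14 ± 0.16 (SE, adjusted p = 0.00013, limma). Slc43a2 (LAT4) was 0.76 ± 0.14 higher in Treg than in TN (adjusted p = 0.0019) and Slc36a4 (PAT4) 0.70 ± 0.18 higher (adjusted p = 0.021). The Slc36a4 call was lost without TN replicate 2, TN replicate 3 or Treg replicate 3 (adjusted p up to 0.147). Treg minus GFPKO was 0.54 ± 0.16 for Slc43a1 (adjusted p = 0.047), a call lost without any of 10 of the 11 arrays in turn (adjusted p up to 0.235). That call was also lost with the actin distance in the model (0.45, adjusted p = 0.270).

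The large neutral amino acid carrier Slc7a5 (LAT1), which activated T cells need for leucine uptake, did not differ detectably between Treg and TN. Its signals were 8.03, 8.37, 8.37, 8.33 and 8.63 in Treg, 7.40, 7.86 and 7.87 in GFPKO and 8.38, 8.42 and 8.30 in TN. GFPKO lay below both others without overlap. Treg minus TN was -0.02 with a 95% confidence interval of -0.34 to 0.29, GFPKO minus TN was -0.66 ± 0.17 (adjusted p = 0.027, limma) and Treg minus GFPKO 0.64 ± 0.15 (adjusted p = 0.013). Without GFPKO replicate 1 both calls were lost, at adjusted p = 0.085 against TN and 0.069 against Treg, and the call against TN was also lost without any 1 of the TN arrays (adjusted p up to 0.106). With the actin distance in the model the adjusted p-values were 0.287 and 0.114. Its partner Slc3a2, the CD98 heavy chain that carries LAT1 to the surface, was 8.11, 8.65 and 9.15 in GFPKO, against 9.16, 9.30 and 9.09 in TN. GFPKO replicate 3 lay within the range of the TN arrays and the other GFPKO arrays below it. GFPKO minus TN was -0.55 (adjusted p = 0.15), and without GFPKO replicate 3 it was -0.80 (adjusted p = 0.005).

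Slc38a2 (SNAT2), a sodium-coupled carrier of small neutral amino acids, was 7.87, 8.06, 8.15, 8.19 and 8.23 in Treg and 9.08, 9.10 and 8.38 in GFPKO. Treg lay below GFPKO (-0.76 ± 0.19, adjusted p = 0.021, limma). This call was lost without GFPKO replicate 1 or GFPKO replicate 2 (adjusted p of 0.090 to 0.113) and with the actin distance in the model (-0.48, adjusted p = 0.210), and the other probe sets of Slc38a2 were not called. The glutamine carrier Slc1a5 (ASCT2) averaged 8.06 ± 0.10 in Treg, 7.99 ± 0.29 in GFPKO and 7.80 ± 0.29 in TN, and its interval for Treg minus TN was -0.07 to 0.58. The arginine carrier Slc7a1, the carriers Slc7a6 and Slc38a1, and Slc38a9, which senses lysosomal arginine for mTORC1, were not called in any comparison.

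**Figure D3:**
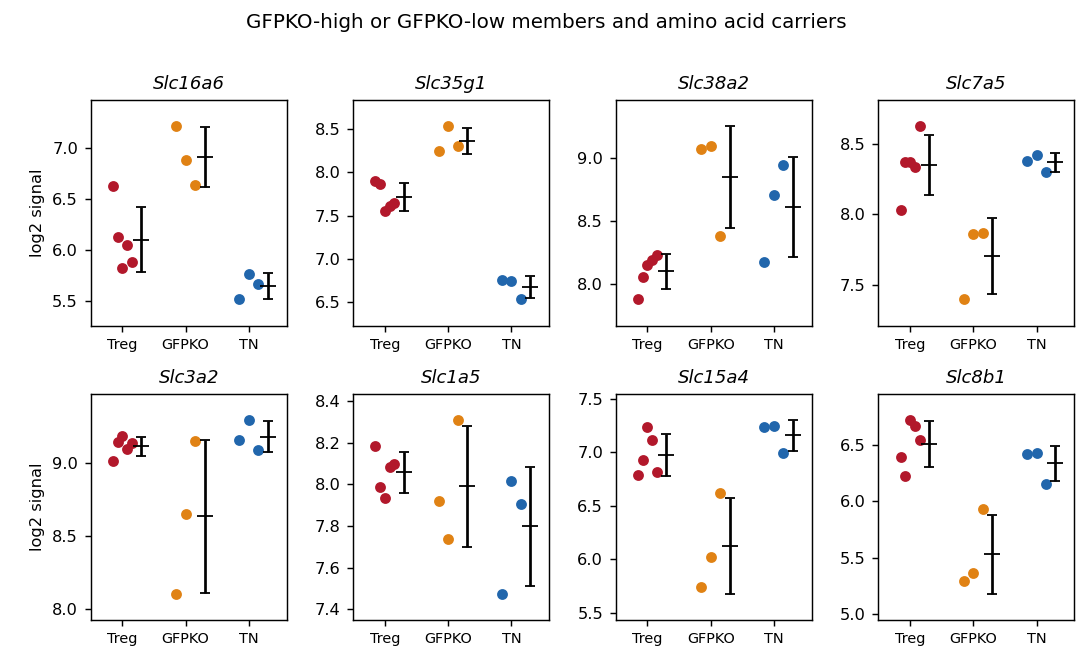
Log2 signal of solute carrier genes that were high or low in GFPKO and of amino acid carriers, 1 point per array, with the mean and SD of each group (Treg n = 5, GFPKO n = 3, TN n = 3). Slc16a6 and Slc35g1 are highest in GFPKO, Slc7a5 lowest in GFPKO, and the 3 GFPKO arrays of Slc3a2 spread from 8.11 to 9.15.

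Of 3 nucleoside carriers, Slc29a1 (ENT1), the equilibrative carrier of adenosine and other nucleosides, was higher in both groups than in TN. Its signals were 6.94, 7.10, 7.29, 7.03 and 7.34 in Treg, 6.80, 6.93 and 7.35 in GFPKO and 6.52, 6.38 and 6.03 in TN. Treg and GFPKO overlapped and both lay above TN. Treg minus TN was 0.83 ± 0.16 (adjusted p = 0.002, limma), GFPKO minus TN 0.72 ± 0.18 (adjusted p = 0.022) and Treg minus GFPKO 0.11 (adjusted p = 0.74). The GFPKO call was lost without TN replicate 2, TN replicate 3, GFPKO replicate 2 or GFPKO replicate 3 (adjusted p up to 0.107). Among 7 sugar carriers and related genes, Slc45a4 was the 1 called, at 7.91 ± 0.11 in Treg, 7.11 ± 0.23 in GFPKO and 6.84 ± 0.15 in TN. It was higher in Treg than in TN by 1.07 ± 0.13 (adjusted p = 3.4e-05) and higher than in GFPKO by 0.80 ± 0.13 (adjusted p = 0.0011). Of the excluded glucose and lactate carriers, Slc2a3 (GLUT3) averaged 10.89 in Treg, 9.0 in GFPKO and 9.44 in TN, and was called higher in Treg in both comparisons.

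Among 9 carriers of peptides, vitamins, cofactors and haem, 2 were higher and 1 lower in Treg than in TN, and 1 was higher and 2 lower in GFPKO than in TN. The share was 33.3% in both, against 9.97% and 5.66% of all genes and 16.4% and 9.94% of genes at the level of the rule. Slc19a2, a thiamine carrier, was 0.73 ± 0.16 higher in GFPKO than in TN (adjusted p = 0.0093, limma), a call lost without TN replicate 3 or GFPKO replicate 2 (adjusted p up to 0.055) or with the actin distance in the model (adjusted p = 0.116). The folate carrier Slc19a1 and the riboflavin carrier Slc52a3 were higher in Treg than in TN, by 0.52 ± 0.15 (adjusted p = 0.04) and 0.72 ± 0.15 (adjusted p = 0.0048). The Slc19a1 call was lost without any of 6 of the 11 arrays in turn (adjusted p up to 0.169). Slc52a3 was also higher in Treg than in GFPKO (0.58 ± 0.15, adjusted p = 0.025), lost without Treg replicate 4, Treg replicate 5 or GFPKO replicate 2 (adjusted p up to 0.128) or with the actin distance (adjusted p = 0.139). Slc49a4, a lysosomal membrane protein, had signals of 6.67, 6.59, 6.36, 6.84 and 6.71 in Treg, 5.82, 6.19 and 6.83 in GFPKO and 7.71, 7.87 and 7.41 in TN. Both groups lay below TN, Treg by -1.03 ± 0.19 (adjusted p = 0.0019) and GFPKO by -1.38 ± 0.22 (adjusted p = 0.0008). Slc15a4, the lysosomal histidine and peptide carrier used in TLR7 and TLR9 signalling, read 6.79, 6.93, 7.24, 7.12 and 6.81 in Treg, 5.74, 6.02 and 6.62 in GFPKO and 7.24, 7.25 and 6.99 in TN. The GFPKO arrays lay below all others. Its differences of -1.03 ± 0.20 for GFPKO minus TN (adjusted p = 0.0047) and 0.85 ± 0.18 for Treg minus GFPKO (adjusted p = 0.0066) were lost with the actin distance in the model (adjusted p = 0.098 and 0.069) and with the mean of its probe sets (-0.37 and 0.40, adjusted p = 0.178 and 0.065).

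Among 5 phosphate, sulfate and anion carriers, Slc20a1 (PiT-1), the sodium-dependent phosphate importer, had signals of 8.15, 8.00, 8.11, 7.96 and 8.05 in Treg, 8.54, 8.53 and 8.62 in GFPKO and 9.56, 9.45 and 9.25 in TN. The groups did not overlap and the order was the same as for Slc16a5. Treg was below TN by 2.58-fold (log2 -1.37 ± 0.11, adjusted p = 5e-07, limma), and GFPKO minus TN was -0.85 ± 0.12 (adjusted p = 0.00045), a call that another probe set did not share and that was lost with the mean of its probe sets (-0.25, adjusted p = 0.273). The related phosphate carrier Slc20a2 was 0.44 ± 0.13 higher in Treg than in TN (adjusted p = 0.0484), a call lost without any of 7 arrays in turn (adjusted p up to 0.282). Slc26a11, an anion carrier, was lower in Treg than in TN by -1.01 ± 0.17 (adjusted p = 0.00069).

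Among 9 genes grouped as ion and pH exchangers, 2 were higher and 1 lower in Treg than in TN, and 2 were lower in GFPKO than in TN. The shares were 33.3% and 22.2%, against 9.97% and 5.66% of all genes and 16.4% and 9.94% of genes at the level of the rule. Slc9a7, a sodium-proton exchanger of the trans-Golgi, lies on the X chromosome and had signals of 6.91, 6.34, 6.56, 5.99 and 5.72 in Treg, 5.79, 5.25 and 4.50 in GFPKO and 4.96, 4.83 and 4.41 in TN. Treg lay above TN by 1.57 ± 0.28 (adjusted p = 0.0012, limma), and Treg and GFPKO overlapped although their difference was called (1.12 ± 0.28, adjusted p = 0.02). That difference was lost without Treg replicate 3, GFPKO replicate 2 or GFPKO replicate 3 (adjusted p up to 0.062). The mitochondrial sodium-calcium exchanger Slc8b1 (NCLX) was 6.40, 6.23, 6.72, 6.67 and 6.55 in Treg, 5.29, 5.37 and 5.93 in GFPKO and 6.42, 6.43 and 6.16 in TN. It was lower in GFPKO than in TN by -0.81 ± 0.18 (adjusted p = 0.014) and higher in Treg than in GFPKO by 0.98 ± 0.16 (adjusted p = 0.0013). The call against TN was lost without TN replicate 1, TN replicate 2 or GFPKO replicate 2 (adjusted p up to 0.075) and with the actin distance in the model (adjusted p = 0.255). Slc9a9, an endosomal exchanger, was lower in GFPKO than in TN by -0.82 ± 0.14 (adjusted p = 0.0015) and higher in Treg than in GFPKO by 0.51 ± 0.12 (adjusted p = 0.017, lost without GFPKO replicate 1 at 0.078 and with the actin distance at 0.0996). The mean of its probe sets gave 0.22 for Treg minus GFPKO (adjusted p = 0.185). The potassium-chloride carriers Slc12a7 (KCC4) and Slc12a4 (KCC1) differed from TN in opposite directions in Treg, by -0.68 ± 0.12 (adjusted p = 0.0013) and 0.61 ± 0.18 (adjusted p = 0.0488). The Slc12a4 call was lost without any of 7 arrays in turn (adjusted p up to 0.256). Slc12a7 was also lower in Treg than in GFPKO (-0.44 ± 0.12, adjusted p = 0.036), lost without any of 8 arrays in turn (adjusted p up to 0.094).

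Metals had 21 members, of which 2 were higher and 2 lower in Treg than in TN, 1 was higher in GFPKO than in TN, and 2 were higher and 1 lower in Treg than in GFPKO. The zinc importer Slc39a4 (ZIP4) had signals of 6.54, 6.51, 6.79, 6.73 and 6.96 in Treg, 5.05, 5.05 and 6.01 in GFPKO and 4.94, 5.24 and 5.02 in TN. The 5 Treg arrays lay above all others. Treg exceeded TN by 1.64 ± 0.20 (adjusted p = 3e-05, limma) and GFPKO by 1.34 ± 0.20 (adjusted p = 0.00046), and GFPKO minus TN was 0.30 ± 0.22 (adjusted p = 0.59). The zinc exporter Slc30a4 (ZnT4) was 6.11, 5.95, 5.65, 5.55 and 5.34 in Treg, 7.09, 6.76 and 6.28 in GFPKO and 6.88, 6.58 and 6.75 in TN. The Treg arrays lay below all others. Treg minus TN was -1.02 ± 0.19 (adjusted p = 0.0022) and Treg minus GFPKO -0.99 ± 0.19 (adjusted p = 0.0043), the second lost with the actin distance in the model (adjusted p = 0.051). Slc30a1 (ZnT1), another zinc exporter, was -0.61 ± 0.18 lower in Treg than in TN (adjusted p = 0.0497) and this call was lost in 11 of 20 other settings, 8 of them with 1 array left out (adjusted p up to 0.225). The magnesium carrier Slc41a1 was higher in both Treg (0.70 ± 0.11, adjusted p = 0.00057) and GFPKO (0.48 ± 0.13, adjusted p = 0.04) than in TN, the second lost in 14 of 20 settings, 9 of them with 1 array left out (adjusted p up to 0.189). The zinc importer Slc39a1 was higher in Treg than in GFPKO (0.56 ± 0.16, adjusted p = 0.036), lost without any of 7 arrays in turn (adjusted p up to 0.178). That call was also lost with the actin distance in the model (0.36, adjusted p = 0.309). Slc30a5, Slc39a6, Slc39a10 and Slc11a2 were not called.

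Among 30 mitochondrial carriers 3 were higher and none lower in Treg than in TN, none was called in GFPKO against TN, and 5 were higher in Treg than in GFPKO. These shares were 10% for Treg minus TN, against 9.97% of all genes and 16.4% of genes at the level of the rule, and 16.7% for Treg minus GFPKO, against 9.43% and 15.8%. The X-linked orphan carrier Slc25a53 was 6.94, 6.74, 6.78, 6.78 and 6.71 in Treg, 5.65, 5.86 and 5.07 in GFPKO and 5.5, 5.27 and 5.57 in TN. The 5 Treg arrays lay above the others, and Treg exceeded TN by 1.34 ± 0.16 (adjusted p = 2.3e-05, limma) and GFPKO by 1.26 ± 0.16 (adjusted p = 0.0001), though its other probe set was not called. The carnitine-acylcarnitine carrier Slc25a20 was 0.53 ± 0.14 higher in Treg than in TN (adjusted p = 0.023) and the pyrimidine nucleotide carrier Slc25a33 0.59 higher (adjusted p = 0.044), the first lost in 6 and the second in 11 of 20 settings. Leaving out 1 array lost the Slc25a20 call for TN replicates 2 and 3 and Treg replicates 4 and 5 (adjusted p up to 0.139) and the Slc25a33 call for 8 arrays (adjusted p up to 0.157). Against GFPKO, Treg was higher for Slc25a33 (0.90 ± 0.18, adjusted p = 0.0043), the citrate carrier Slc25a1 (0.82 ± 0.23, adjusted p = 0.037), the ADP/ATP carrier Slc25a4 (0.47 ± 0.13, adjusted p = 0.034) and the X-linked Slc25a14 (0.49 ± 0.14, adjusted p = 0.047). Slc25a1 read 5.98, 6.22 and 7.29 in GFPKO, so replicate 3 stood at the Treg level. Leaving out 1 array lost the calls against GFPKO for 7 arrays in Slc25a1 and in Slc25a4 and for 8 in Slc25a14 (adjusted p up to 0.207), and kept that of Slc25a33. The actin distance in the model also lost the calls of Slc25a1 (adjusted p = 0.322), Slc25a4 (adjusted p = 0.0588) and Slc25a14 (adjusted p = 0.333) and kept that of Slc25a33. The ADP/ATP carrier Slc25a5 averaged 12.32 in Treg, 12.29 in GFPKO and 12.29 in TN, with an interval of -0.19 to 0.25 for Treg minus TN.

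The 18 genes grouped by family number as nucleotide sugar carriers are named after carriers that bring activated sugars into the endoplasmic reticulum and Golgi. In this family 3 members were higher in Treg than in TN and 2 in GFPKO than in TN. The shares were 16.7% and 11.1%, against 9.97% and 5.66% of all genes and 16.4% and 9.94% of genes at the level of the rule. Of the called members, Slc35g1 and Slc35f2 are described below by other roles, so the counts do not stand for nucleotide sugar import. Slc35d1, a carrier of UDP-sugars into the endoplasmic reticulum, was 7.33, 7.36, 7.47, 7.46 and 7.07 in Treg, 6.51, 6.41 and 6.53 in GFPKO and 5.95, 6.14 and 5.45 in TN. The groups did not overlap, and Treg exceeded TN by 1.49 ± 0.15 (adjusted p = 5.2e-06, limma). GFPKO exceeded TN by 0.64 ± 0.17 (adjusted p = 0.038), lost in 13 of 20 settings, 9 of them with 1 array left out (adjusted p up to 0.153), and was below Treg (0.85 ± 0.15 for Treg minus GFPKO, adjusted p = 0.0021). Another probe set of Slc35d1 shared the Treg minus TN call. It was not called for GFPKO minus TN or for Treg minus GFPKO (0.08, adjusted p = 0.86). Slc35g1, reported as a partner of the calcium sensor STIM1, was 7.90, 7.87, 7.55, 7.62 and 7.64 in Treg, 8.25, 8.54 and 8.30 in GFPKO and 6.76, 6.75 and 6.53 in TN. GFPKO was highest, above TN by 1.68 ± 0.14 (adjusted p = 1.6e-06), and Treg lay between, above TN by 1.03 ± 0.13 (adjusted p = 3.7e-05) and below GFPKO (-0.65 ± 0.13, adjusted p = 0.0044). Slc35f2, whose human counterpart takes up the drug YM155, was higher in Treg than in GFPKO by 1.08 ± 0.13 (adjusted p = 8.3e-05) and than in TN by 0.66 ± 0.13 (adjusted p = 0.0032), the second lost with the mean of its probe sets (0.35, adjusted p = 0.110). Slc35a1 and Slc35b1 were not called, nor were any members of the fatty acid and choline, neurotransmitter, other families or non-transporter groups, among them Slc44a2, Slc27a4 and Slc6a6.

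**Figure D4:**
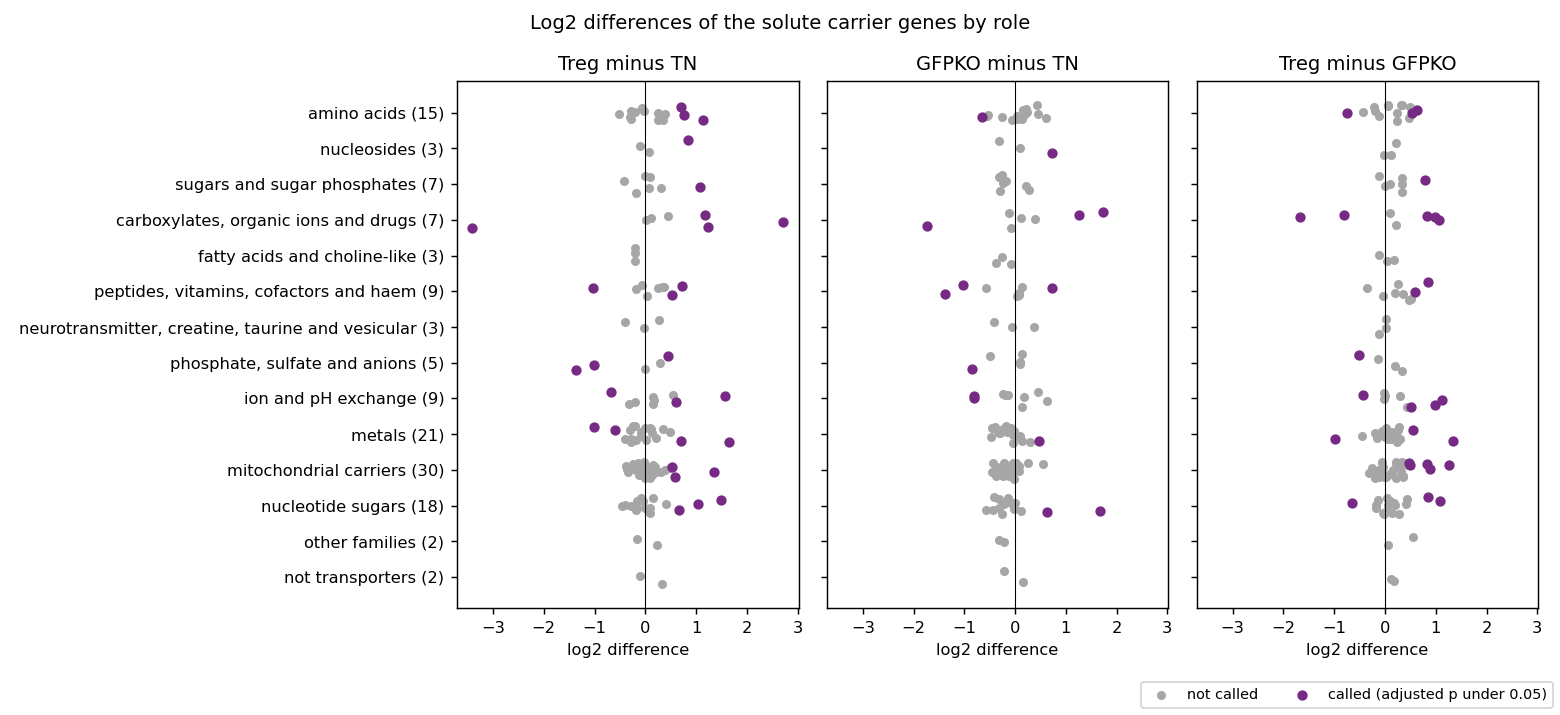
Log2 differences of the 134 solute carrier genes by role, 1 panel per comparison and 1 point per gene, purple where called at adjusted p under 0.05. The carboxylate and organic ion carriers span the widest range, -3.40 to 2.71 for Treg minus TN, and most mitochondrial carriers lie near 0.

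**Figure D5:**
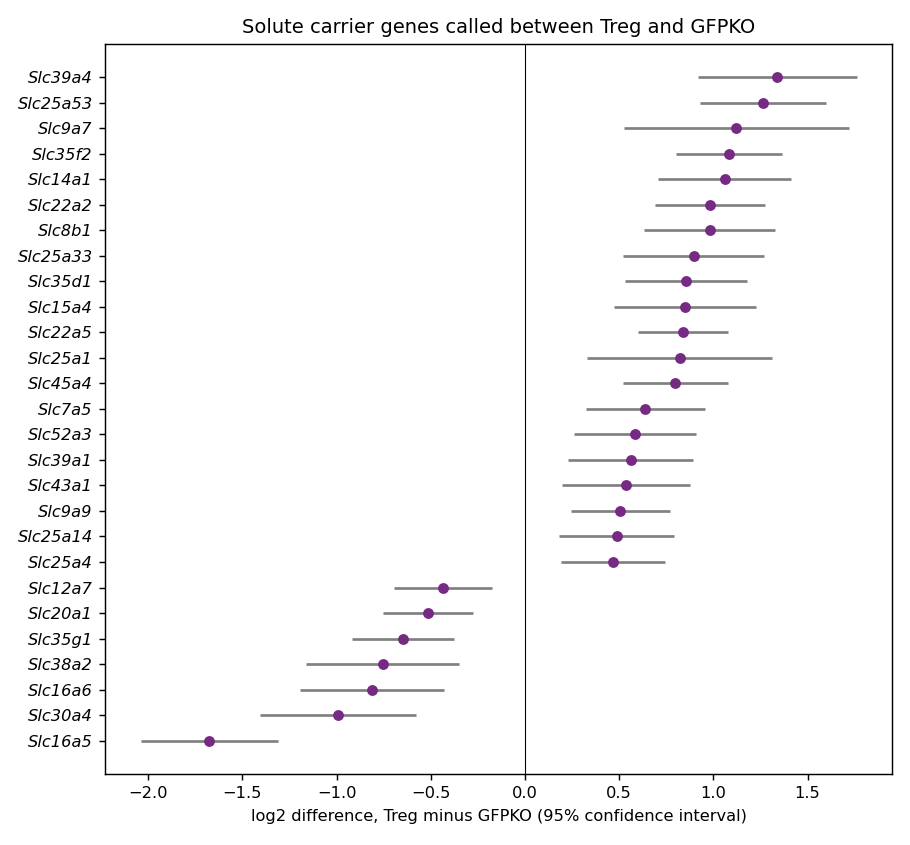
Log2 difference, Treg minus GFPKO, with 95% confidence intervals for the 27 solute carrier genes called between these groups. The 20 genes higher in Treg reach 1.34 (Slc39a4) and the 7 lower ones reach -1.68 (Slc16a5).

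Many genes had more than 1 probe set. Of the 28 calls in Treg minus TN, 12 had another probe set above background. In 5 of these every such probe set was called the same way, in 7 some were not called, and none was called the opposite way. For GFPKO minus TN the counts were 14 calls, 4 with another probe set, none with all called the same way and 4 with some not called. For Treg minus GFPKO they were 27, 10, 2 and 8. The called genes with such a probe set were Slc12a7, Slc19a1, Slc19a2, Slc20a1, Slc20a2, Slc22a5, Slc25a4, Slc25a53, Slc30a1, Slc35d1, Slc38a2, Slc43a2, Slc45a4 and Slc9a9. Of 89 called results for the genes named here, 53 kept their call in all other settings run, among them the 3 differences of Slc22a2 and of Slc16a5. Both counts include genes outside the members, namely Slc2a3, Slc9b2, Slc40a1, Slc39a8, Abcb1a, P2rx7, Atp1b1, Atp8b4 and Emb. They therefore do not give the share of the members' calls that was kept.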

How the data were processed

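RNA of 11 samples of mouse CD4 T cells was hybridised to Affymetrix arrays (Treg 5, GFPKO 3, TN 3). The deposited values are log2 signals made by the authors with RMA, per the submitters' processing notes. Its version was not stated, and the log2 scale was read from the values. RMA equalises the distribution of arrays, so differences are relative to the other genes of an array. Of 45101 probe sets, 64 controls, 932 with several symbols and 9160 not in the gene table were left out. Each of 18193 genes was read from the probe set brightest on average. Background was 3.99, the highest Foxp3 signal in a TN array. One linear model with a mean per group was fitted over all arrays (limma 3.58.1, R 4.3.3), with moderated tests and Benjamini-Hochberg adjustment over all genes, at 0.05. The precision is limited by the number of arrays. Members and lists were chosen with earlier results of these data known. Values are given for the 10 largest called increases and decreases per comparison and for 50 listed names, of which 36 were members. Further called members were named after their values were seen. The model was tested on simulated data.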

Additional observations from a re-analysis of the deposited data

Results flagged for a closer look

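Slc44a2, a choline transporter-like protein, stood apart in Treg replicate 3, at a log2 signal of 11.21, while the other 4 Treg arrays lay between 10.60 and 10.77. Only the Treg arrays were tested in this way, and of 58 named members Slc44a2 was the only one with 1 Treg array far from the others. Chance alone yields such arrays for some genes. The GFPKO and TN groups, with 3 arrays each, were not tested. Slc44a2 was not called in any comparison.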

How the results depend on the processing

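Of the 169 results for named genes, none changed sign in a setting where either fit, the main one or that of the setting, called it. Changes of sign in results called in neither fit were not counted. Sex, which follows the GFPKO label, was not varied. With array weights 14 members were lower in Treg than in TN. In this fit GFPKO replicate 2 had a weight of 5.11, and GFPKO replicates 1 and 3 had 0.254 and 0.307. The GFPKO mean therefore rested mostly on 1 array. Between GFPKO and TN 46 were called (17 higher, 29 lower), and between Treg and GFPKO 55 (42 higher, 13 lower). The counts over all genes rose too. Between Treg and TN those lower went from 623 to 1386. Between GFPKO and TN the counts went from 480 higher and 549 lower to 2118 and 2933. Between Treg and GFPKO they went from 1252 and 464 to 4424 and 2332. With arrays centred on the median of other genes 13 members were lower in Treg than in TN, and 12 were higher and 11 lower in Treg than in GFPKO. Fitting only the groups compared gave 9 called between GFPKO and TN, 4 of them higher. Over all genes this fit called 311 higher and 251 lower. The actin distance as covariate gave 9 between GFPKO and TN, 4 of them higher, and 15 between Treg and GFPKO, 11 higher and 4 lower. Over all genes it called 341 higher and 229 lower between GFPKO and TN, and 584 higher and 227 lower between Treg and GFPKO. With members at 7 or more, 15 were called between Treg and TN (10 higher), 4 higher were called between GFPKO and TN, and 15 were called between Treg and GFPKO (10 higher). The causes of these shifts were not tested, except that the level of 7 leaves fewer members. Leaving out 1 array at a time gave 22 to 32 calls for Treg minus TN (16 to 23 higher, 6 to 9 lower), 10 to 19 for GFPKO minus TN (3 to 8 higher, 5 to 15 lower) and 20 to 40 for Treg minus GFPKO (13 to 33 higher, 6 to 8 lower). The widest shifts came without GFPKO replicate 3 (15 lower and 4 higher against TN, 33 higher in Treg), GFPKO replicate 2 (3 higher against TN, 13 higher in Treg) and TN replicate 3 (3 higher). Same-numbered arrays correlated between -0.22 and 0.507 in their deviations from the group means. The replicate 1 arrays correlated positively in all 3 pairs (0.157 to 0.507), and pairs of replicates 2 and 3 lay between -0.22 and 0.068, so pairing was not borne out for every number. With the replicate block 24, 13 and 19 members were called for the 3 comparisons, and 18 results for named genes lost their call. Over all genes it called 978 higher and 458 lower, 510 and 518, and 752 and 297.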

Other observations

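Transport genes outside the solute carrier family were measured in the same arrays. Of 45 ABC transporters, 2 were higher in Treg than in TN, 1 was lower in GFPKO than in TN and 2 were higher in Treg than in GFPKO (limma with Benjamini-Hochberg adjustment over all genes). These shares of 4.44%, 2.22% and 4.44% stand beside 9.97%, 5.66% and 9.43% of all genes. The ABC list was not filtered on level and holds genes at background, so the shares are not matched on level. They do not show that ABC transporters changed less often. Abcb1a, a drug efflux pump, averaged 6.91 in Treg, 4.42 in GFPKO and 5.27 in TN. Of 21 ion pumps and channels measured, 1 was higher and 4 lower in Treg than in TN, or 23.8% against 9.97% of all genes. Between GFPKO and TN 1 was higher and 2 lower in GFPKO, or 14.3% against 5.66% of all genes. Among genes with a group mean of 6 or more, 16.4% were called between Treg and TN and 9.94% between GFPKO and TN. The pumps and channels were listed from general knowledge without a filter on level, so neither base is matched to them. The largest difference was in Atp8b4, a P-type ATPase of the phospholipid flippase family, which averaged 3.92 in Treg, at background, 4.68 in GFPKO and 7.61 in TN (adjusted p = 2.5e-09 for Treg minus TN). P2rx7, the ATP-gated channel, was higher in Treg (9.64) and GFPKO (9.08) than in TN (7.53). Atp1b1, a subunit of the sodium pump, was lower in Treg (8.30) and GFPKO (8.68) than in TN (9.98). Emb, a chaperone of monocarboxylate carriers, averaged 9.42 in Treg, 10.39 in GFPKO and 11.05 in TN. Its GFPKO minus TN call was lost with the mean of its probe sets (-0.17, adjusted p = 0.730).

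Among the 209 solute carrier genes below the level of 6, 7 were called higher and 2 lower in Treg than in TN, or 4.31%. The share of all genes was 9.97%, but it includes the genes at 6 or more, of which 16.4% were called. The 2 shares are therefore not matched on level, and they do not show that these solute carriers changed less often. Slc9b2, a sodium-proton exchanger, averaged 5.36 in Treg, 4.92 in GFPKO and 3.92 in TN, where the signal was at background. Slc40a1, the iron exporter ferroportin, averaged 5.02 in Treg, 4.61 in GFPKO and 4.11 in TN. Slc39a8, a zinc importer, averaged 5.01 in Treg, 5.82 in GFPKO and 4.70 in TN, and was called higher in GFPKO than in TN (1.12, adjusted p = 0.0052). This call was lost with the mean of its probe sets (0.61, adjusted p = 0.083) and with the actin distance in the model (0.78, adjusted p = 0.114).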
